A study of Mus musculus with 2 samples.

Results

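The lysosomal genes described here are 43 genes for acid hydrolases, their activator proteins, proteins of the lysosomal membrane and regulators of the organelle, set by a fixed list of symbols, out of 18193 genes measured. Total RNA was hybridised to Affymetrix expression arrays, with 1 array for PGK12.1 cells after 15 days of embryoid body differentiation and 1 for undifferentiated PGK12.1 cells (day 0). PGK12.1 is a female mouse embryonic stem cell line, derived from blastocysts of a 129 female and a (129 X PGK)F1 male, and it is 1 line at passages given as a range, so neither array stands for other lines. The cells had been kept on fibroblast feeders in medium with leukemia inhibitory factor, and feeders were depleted on gelatin before collection and before differentiation. The study's stated interest was expression of the X chromosome, taken to be active in 2 copies in the undifferentiated cells and in 1 copy at day 15. Whether all cells of the day 15 culture had made that change was not tested.

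Lysosomes are acidic compartments in which hydrolases cut proteins, glycans and lipids that arrive by endocytosis or autophagy, and transporters in the limiting membrane return the products to the cytosol. Most soluble hydrolases receive a mannose 6-phosphate tag in the Golgi apparatus and are carried to the organelle by receptors for that tag. The transcription factor TFEB and its relatives TFE3 and MITF bind an E-box-like palindrome, called the CLEAR element, near the start sites of many lysosomal genes.

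Each gene is represented by its brightest probe set that names it alone, taken as the highest mean log2(signal + 16) over both arrays. The log2 difference is day 15 minus undifferentiated on that scale, where the added 16 understates the change of dim genes, while a fold is the ratio of the deposited signals. Levels of different genes were not ranked, since probe sets differ in brightness, and a signal summed over a list of markers is compared only between the arrays. Since each condition has a single array, no value has a replicate error and no test could be made, and a gene is counted as higher or lower where its log2 difference passes 2-fold. Where the dimmer array lay below 35.6, the highest signal of 15 bacterial control probe sets without target, the fold is a lower bound, computed against 35.6 and written as at least N-fold. In RNA from a whole culture, more cells of a type and more RNA per cell cannot be told apart.

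Of the 43 genes, 42 were measured and 41 lay above the expression filter, which is the median of all probe sets and corresponds to a signal of about 36.5. Cd63, a tetraspanin of lysosomes and secretory vesicles, was not analysed here, and Ctsk lay below the filter. Of the 41 genes, 19 (46.3%) passed 2-fold upward at day 15, beside 16.5% of the 11960 genes above the filter. Only Tfeb and Manba were at least 2-fold lower (4.88%), beside 8.41% of all genes, and 20 stayed within 2-fold. At least 4-fold higher were 4 of the 41 genes, Naglu, Ctsh, Ctss and Lamp2, beside 6.54% of all genes. Of these, Naglu, Ctsh and Ctss lay below 35.6 in undifferentiated cells. They passed the filter, which is set on the mean of both arrays, only through their day 15 signal. The median log2 difference was 0.84 over the lysosomal genes and 0.00052 over all genes, and 33 of the 41 differences were above 0.

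**Figure D1:**
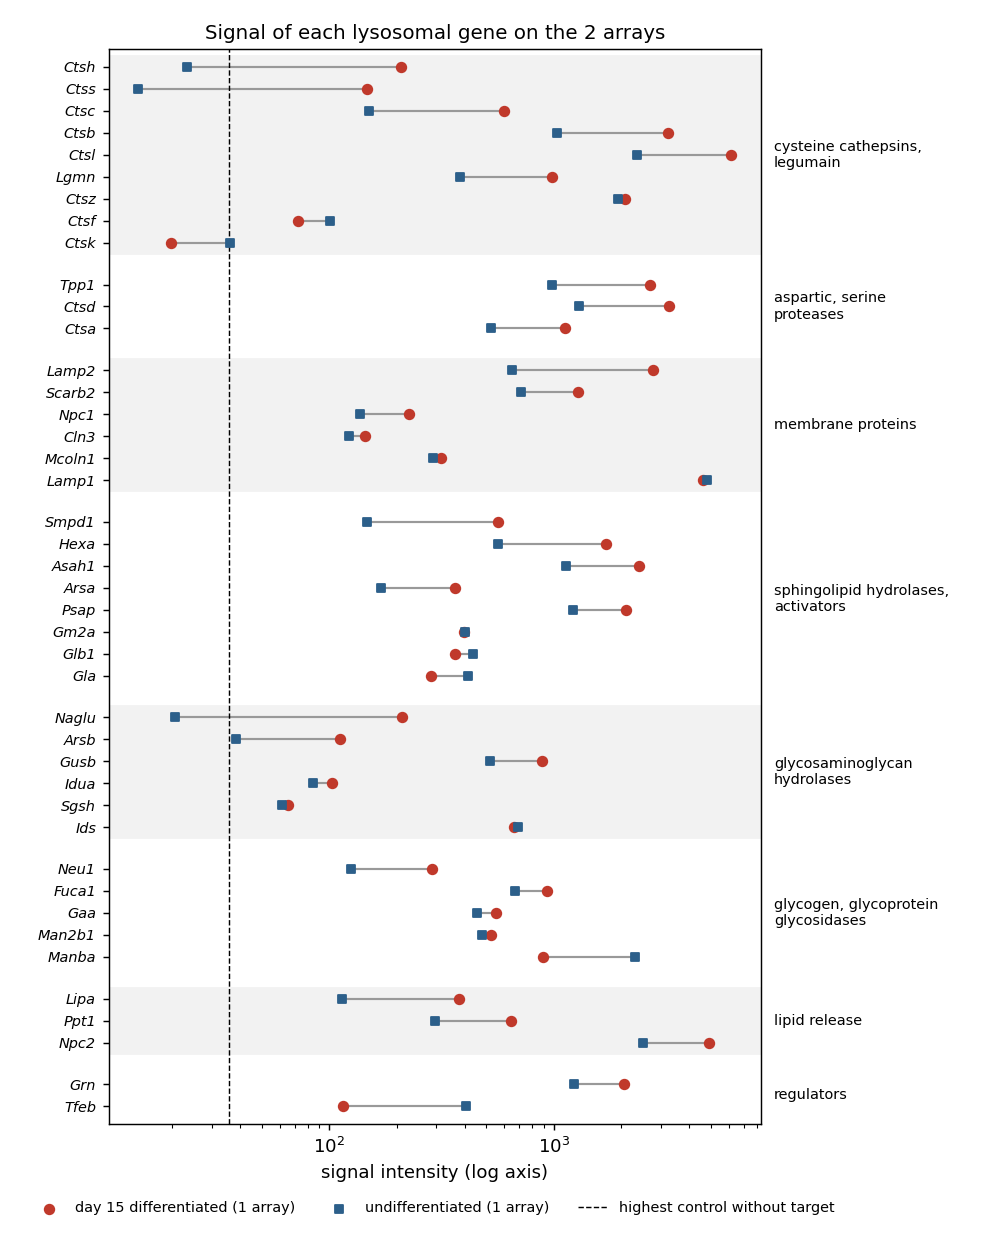
Signal intensity (log axis) of the brightest probe set of each of the 42 measured lysosomal genes at day 15 (red circles) and in undifferentiated cells (blue squares), 1 array each, grouped by role. The dashed line is the highest control without target (35.6), and the longest lines to the right are those of Ctsh, Ctss and Naglu, while Tfeb and Manba have the longest lines to the left.

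The counts depended on how the arrays were scaled. Scaling on the 18 bacterial hybridization control probe sets, which were brighter on the day 15 array by 0.39 on the log2 scale, moved the median of all genes to -0.36, and quantile normalization moved it to -0.13. The lysosomal median minus that of all genes was 0.84 as deposited, 0.81 with the control scaling and 0.94 with quantile normalization. At least 2-fold higher were 10 lysosomal genes with the control scaling, beside 11.3% of all genes, and 17 with quantile normalization, beside 13.8%. Among all genes past 2-fold, 66.3% were higher at day 15 as deposited, 37.7% with the control scaling and 54.6% with quantile normalization. Among the lysosomal genes past 2-fold these shares were 90.5%, 83.3% and 89.5%. Differences below 0 numbered 8 of 41 as deposited and 15 of 41 with the control scaling. The values that follow are on the deposited scaling.

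**Figure D2:**
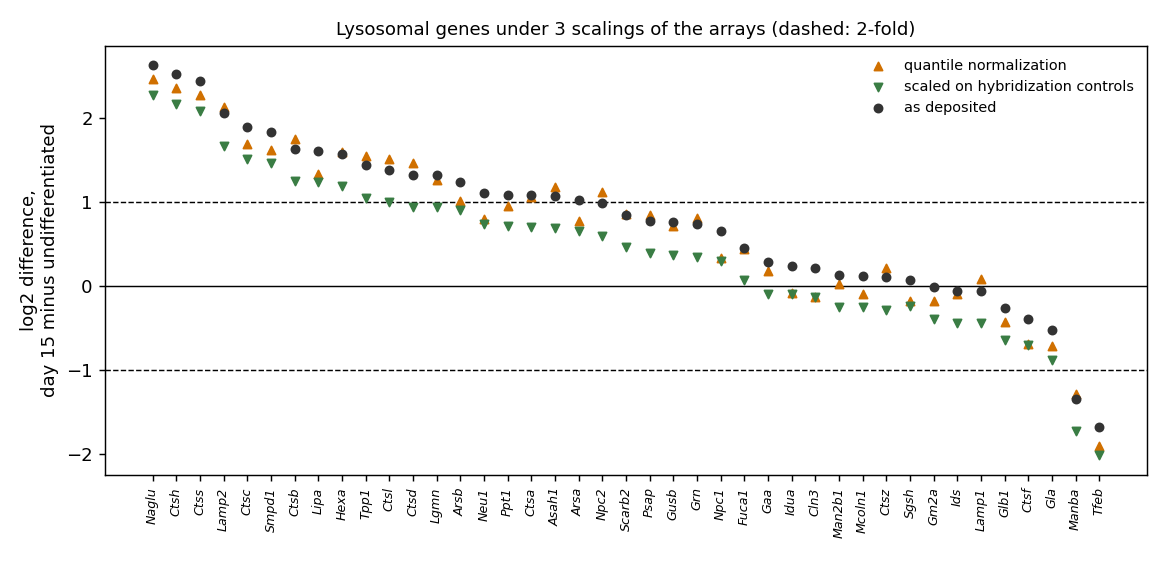
Log2 difference (day 15 minus undifferentiated) of the 41 lysosomal genes above the filter, as deposited (black circles), with quantile normalization (orange triangles) and scaled on the hybridization controls (green triangles). Dashed lines mark 2-fold, and 10 genes stay above the upper line with the control scaling.

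Promoter windows of 250 bases before to 50 bases after a start site (RefSeq, GRCm38.p6) were found for 39 of the 43 genes, in 45 windows. They were searched for CACGTG, the core of the CLEAR element, and for TCACGTGA, which contains that core. Both read the same on either strand. CACGTG stood in a window of 14 of the 39 genes (35.9%), beside 8.09% of the 27025 genes in the promoter table, and TCACGTGA in those of 5 genes (12.8%), beside 1.12%. The 5 were Ctsd, Ctsa, Cln3, Mcoln1 and Gla. All 14 lysosomal genes with CACGTG lay above the filter, and 6 of them passed 2-fold upward at day 15 and 0 downward. Of the 23 above the filter with a window but without CACGTG, 10 passed upward and 2 downward. The upward shares with and without CACGTG were thus close, and of all genes 16.5% passed upward and 8.41% downward. The median log2 difference was 0.25 with and 0.84 without CACGTG. A match of letters is no evidence of binding.

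Shown are 6 windows, with the matched letters in capitals, of genes with TCACGTGA or several copies of CACGTG on both sides of the 2-fold threshold, and of Naglu, a gene at least 4-fold higher at day 15. Ctsd lies at chr7:142387778-142388077 (minus strand), with TCACGTGA 99 bases before the start site. Ctsa lies at chr2:164833523-164833822 (plus strand), with TCACGTGA 13 bases before the start site and again 5 bases into the transcript. Mcoln1 lies at chr8:3500269-3500568 (plus strand), and Gla at chrX:134600956-134601255 (minus strand) with a pair of copies 228 and 195 bases before the start site. Lamp1 lies at chr8:13158911-13159210 (plus strand) with 4 copies of CACGTG within 61 bases of the start site, and Naglu at chr11:101069844-101070143 (plus strand) with 1 copy 73 bases before it.
Ctsd: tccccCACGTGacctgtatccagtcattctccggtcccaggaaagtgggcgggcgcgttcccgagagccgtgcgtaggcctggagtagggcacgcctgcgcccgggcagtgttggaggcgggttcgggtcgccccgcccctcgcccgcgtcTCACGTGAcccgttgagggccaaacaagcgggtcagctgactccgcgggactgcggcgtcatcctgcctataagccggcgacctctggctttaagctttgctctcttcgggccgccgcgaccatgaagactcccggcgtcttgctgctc
Ctsa: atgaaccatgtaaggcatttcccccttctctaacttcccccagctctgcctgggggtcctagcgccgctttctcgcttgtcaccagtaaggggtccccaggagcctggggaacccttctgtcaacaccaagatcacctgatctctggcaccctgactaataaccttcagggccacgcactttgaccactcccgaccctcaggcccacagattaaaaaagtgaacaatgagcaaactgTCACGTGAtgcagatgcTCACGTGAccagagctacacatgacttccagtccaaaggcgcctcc
Mcoln1: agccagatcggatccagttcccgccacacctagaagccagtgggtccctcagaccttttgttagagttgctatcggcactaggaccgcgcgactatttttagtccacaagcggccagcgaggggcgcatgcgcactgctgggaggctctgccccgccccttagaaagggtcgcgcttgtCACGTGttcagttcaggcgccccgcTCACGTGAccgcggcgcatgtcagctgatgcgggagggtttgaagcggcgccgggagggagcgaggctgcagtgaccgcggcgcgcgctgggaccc
Gla: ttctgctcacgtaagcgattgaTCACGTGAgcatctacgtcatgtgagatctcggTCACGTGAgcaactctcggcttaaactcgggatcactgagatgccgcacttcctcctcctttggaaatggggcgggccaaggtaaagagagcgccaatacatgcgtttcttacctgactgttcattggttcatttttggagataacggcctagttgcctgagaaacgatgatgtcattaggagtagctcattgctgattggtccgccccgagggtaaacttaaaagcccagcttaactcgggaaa
Lamp1: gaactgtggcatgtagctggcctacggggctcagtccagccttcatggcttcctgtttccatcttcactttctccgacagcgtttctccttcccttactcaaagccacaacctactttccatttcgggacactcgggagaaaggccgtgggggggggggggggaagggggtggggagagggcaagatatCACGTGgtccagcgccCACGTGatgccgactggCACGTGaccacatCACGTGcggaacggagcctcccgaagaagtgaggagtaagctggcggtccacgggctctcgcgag
Naglu: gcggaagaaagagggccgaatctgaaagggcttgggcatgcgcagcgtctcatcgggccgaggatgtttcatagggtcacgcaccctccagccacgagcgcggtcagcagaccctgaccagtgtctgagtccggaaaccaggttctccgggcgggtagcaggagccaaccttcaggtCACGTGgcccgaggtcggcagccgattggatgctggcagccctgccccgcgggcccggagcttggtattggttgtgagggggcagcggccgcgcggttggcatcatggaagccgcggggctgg

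Among the proteases above the filter, 9 of 11 (81.8%) passed 2-fold upward at day 15 and 0 downward, beside 16.5% and 8.41% of all genes. Cysteine cathepsins and legumain, which share a catalytic cysteine, gave 6 of 8, with a median log2 difference of 1.51. Ctsl, a cysteine endopeptidase, measured 6156.7 at day 15 and 2349.9 in undifferentiated cells (2.62-fold higher). Ctsb, a cysteine protease with endopeptidase and dipeptidyl carboxypeptidase activity, measured 3213.1 at day 15 and 1027.2 in undifferentiated cells (3.13-fold higher). All 4 Ctsb probe sets above the filter were past 2-fold. The second bright one was 2.82-fold higher, and the 2 whose signal in undifferentiated cells lay below 35.6 were at least 6.58-fold and at least 2.82-fold higher. Ctsc, the dipeptidyl peptidase that activates serine proteases of immune cell granules, measured 599.4 at day 15 and 150.3 in undifferentiated cells (3.99-fold higher). Lgmn, an asparaginyl endopeptidase that matures cathepsins, measured 981 at day 15 and 382.7 in undifferentiated cells (2.56-fold higher).

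Ctsh and Ctss were near the control level in undifferentiated cells. Ctsh, an aminopeptidase, measured 208.7 at day 15 and 23.2 in undifferentiated cells (at least 5.86-fold higher), and its second probe set measured 87 at day 15 and 12.5 in undifferentiated cells. Ctss, which trims the invariant chain of class II antigen presentation, measured 146.4 at day 15 and 14.1 in undifferentiated cells (at least 4.11-fold higher). The other members did not follow: Ctsz, a carboxypeptidase, measured 2069.9 at day 15 and 1925.6 in undifferentiated cells, and Ctsf 72.5 at day 15 and 100.4 in undifferentiated cells. Ctsk, the collagen-degrading cathepsin of osteoclasts, measured 19.7 at day 15 and 36.1 in undifferentiated cells, at about the level of the controls without target on both arrays.

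All 3 proteases of other catalytic classes were higher at day 15. Ctsd, the aspartic protease, measured 3269.2 at day 15 and 1296.5 in undifferentiated cells (2.52-fold higher). Tpp1, a serine tripeptidyl peptidase whose loss in humans causes a neuronal ceroid lipofuscinosis, measured 2684.5 at day 15 and 980.3 in undifferentiated cells (2.74-fold higher), and its second probe set differed by 1.47 on the log2 scale. Ctsa, a serine carboxypeptidase that also shields beta-galactosidase and sialidase in a complex, measured 1121.4 at day 15 and 522.4 in undifferentiated cells (2.15-fold higher). A second, dim Ctsa probe set differed by 0.30. Of the partners of Ctsa in that complex, the sialidase gene Neu1 measured 285.4 at day 15 and 124.3 in undifferentiated cells (2.30-fold higher), whereas the beta-galactosidase gene Glb1 measured 361.1 at day 15 and 438.1 in undifferentiated cells (1.21-fold lower).

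Markers of several other cell types also differed between the arrays, not all of them upward. Of 12 markers of macrophages, cells known for high Ctss, 5 lay above the filter and 3 of these passed 2-fold upward. Csf1r measured 276.3 at day 15 and 59.6 in undifferentiated cells, Tyrobp 98.4 at day 15 and 13.2 in undifferentiated cells, and C1qb 80.2 at day 15 and 21.5 in undifferentiated cells. The 3 Csf1r probe sets above the filter differed by 0.40 to 1.95 on the log2 scale. Adgre1 measured 107 at day 15 and 60.7 in undifferentiated cells. Ptprc, C1qa, C1qc, Aif1 and Itgam lay below the control level on both arrays. Fcer1g (52.4 at day 15 and 9.7 in undifferentiated cells) and Cd14 (52 at day 15 and 20.5 in undifferentiated cells) lay above it at day 15 only, and below the filter. The summed signal of the 12 was 1217 at day 15 and 1150 in undifferentiated cells. Laptm5 was the largest part of this sum on both arrays and the only 1 of the 12 with a lower signal at day 15. It measured 490.3 at day 15 and 949.2 in undifferentiated cells, and all 4 of its probe sets above the filter were lower. Of 6 osteoclast markers 2 lay above the filter and 0 of these passed 2-fold. The summed signal of the 6 was 184.9 at day 15 and 183.3 in undifferentiated cells. Of 9 measured fibroblast and feeder markers 8 were at least 4-fold higher, and their summed signal was 37998 at day 15 and 500 in undifferentiated cells. Of 11 visceral and primitive endoderm markers 9 lay above the filter, of which 5 were at least 4-fold higher, with a sum over all 11 of 3789 at day 15 and 425 in undifferentiated cells. All 8 stem cell markers were below 0 in log2 difference and 5 were at least 2-fold lower at day 15. The summed signal of the 8 was 29127 at day 15 and 52830 in undifferentiated cells. The part of these cell types in the lysosomal differences was not tested.

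The 6 membrane protein genes of the list above the filter had a median log2 difference of 0.43. Lamp2 was the only 1 of them at least 2-fold higher at day 15 (16.7%, beside 16.5% of all genes). Its product lines the lysosomal membrane, and 1 of its splice forms is the receptor of chaperone-mediated autophagy. It measured 2757.7 at day 15 and 653.4 in undifferentiated cells (4.22-fold higher), and its 4 probe sets differed by 2.05 to 2.54 on the log2 scale. Lamp1, the related major glycoprotein of the membrane, measured 4637.6 at day 15 and 4825.3 in undifferentiated cells, with a log2 difference of -0.06 that was 0.08 with quantile normalization and -0.45 with the control scaling. The window of Lamp1 shown above has 4 copies of CACGTG and that of Lamp2 has none. Scarb2, the carrier of beta-glucocerebrosidase, measured 1286.8 at day 15 and 710.7 in undifferentiated cells (1.81-fold higher by its brightest probe set and 1.12-fold by the other). Npc1, the membrane exporter of cholesterol, measured 225.6 at day 15 and 137.5 in undifferentiated cells. Cln3, a membrane protein lost in juvenile ceroid lipofuscinosis, measured 143.7 at day 15 and 122.1 in undifferentiated cells, and the calcium channel gene Mcoln1 314.8 at day 15 and 288.5 in undifferentiated cells.

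**Figure D3:**
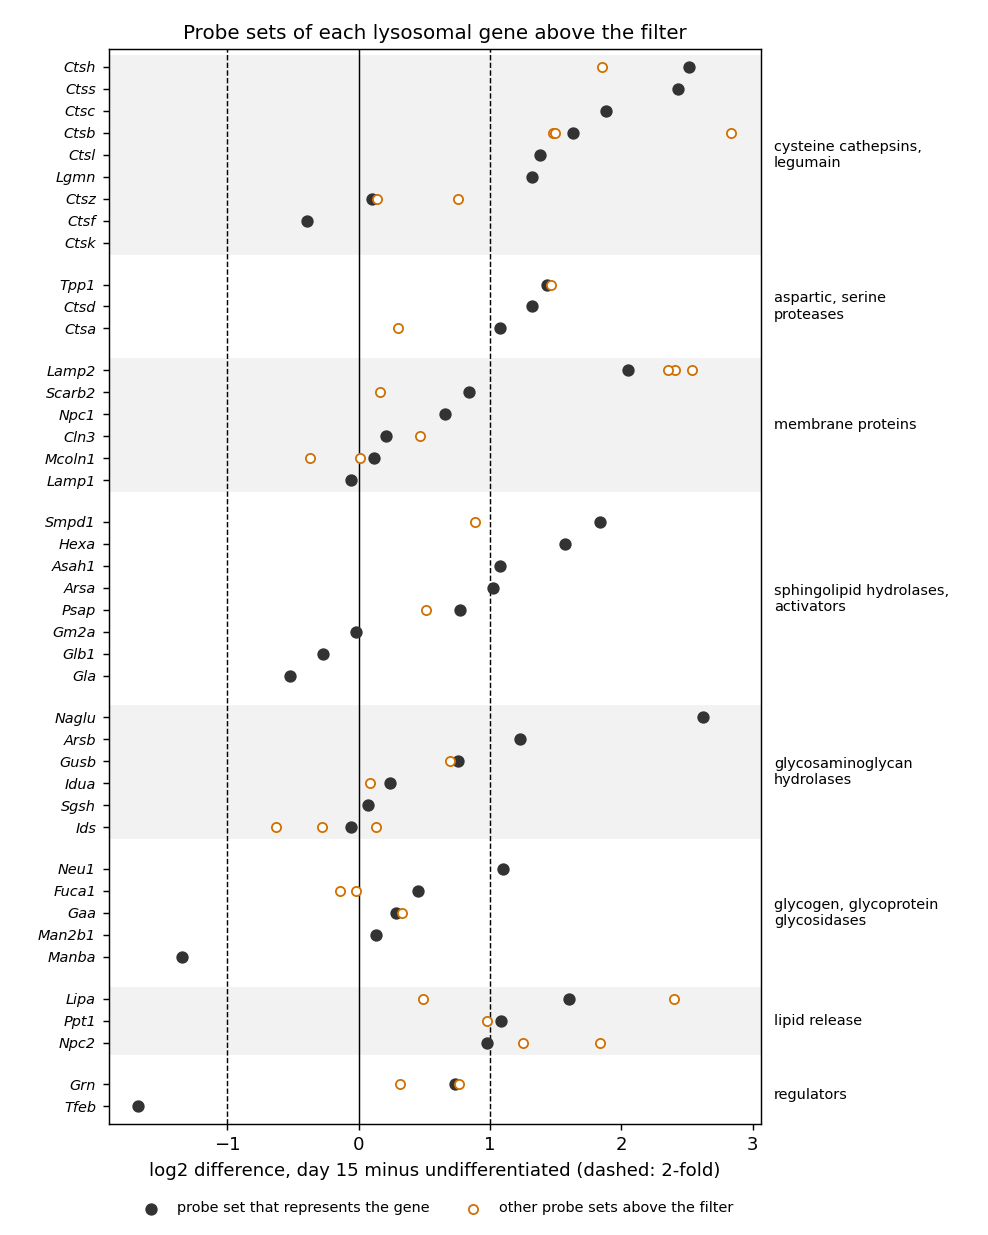
Log2 difference (day 15 minus undifferentiated) of every probe set above the filter of each lysosomal gene, with the probe set that represents the gene in black and the others as open circles. Dashed lines mark 2-fold. The 4 probe sets of Lamp2 and of Ctsb all lie past it, and Mcoln1, Ids and Fuca1 have probe sets on both sides of 0.

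Genes of sphingolipid breakdown were split. Of 8, 4 (50%) passed 2-fold upward at day 15 and 0 downward, beside 16.5% and 8.41% of all genes. The median log2 difference of the 8 was 0.90. Smpd1, acid sphingomyelinase, measured 565.9 at day 15 and 147.1 in undifferentiated cells (3.85-fold higher), with a second probe set at 1.99-fold. Hexa, the alpha subunit of beta-hexosaminidase, measured 1711.8 at day 15 and 565.3 in undifferentiated cells (3.03-fold higher). Asah1, acid ceramidase, measured 2395.2 at day 15 and 1130 in undifferentiated cells (2.12-fold higher), and Arsa, the sulfatide sulfatase, 364.2 at day 15 and 170.7 in undifferentiated cells (2.13-fold higher).

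The activator proteins, which lift lipids toward these enzymes, did not reach 2-fold. Psap, the precursor of the saposins, measured 2084.8 at day 15 and 1212.1 in undifferentiated cells (1.72-fold higher), and Gm2a, which serves Hexa in ganglioside breakdown, 397.3 at day 15 and 402.9 in undifferentiated cells. Gla, alpha-galactosidase A, measured 283.5 at day 15 and 413.4 in undifferentiated cells (1.46-fold lower). The window of Gla shown above holds TCACGTGA at a pair of sites.

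Among the 6 hydrolases of glycosaminoglycans, 2 (33.3%) were at least 2-fold higher at day 15, beside 16.5% of all genes. Naglu, which removes N-acetylglucosamine from heparan sulfate, measured 209.6 at day 15 and 20.6 in undifferentiated cells (at least 5.89-fold higher) and was read by a single probe set. Arsb, the sulfatase of dermatan and chondroitin sulfate, measured 111.6 at day 15 and 38.3 in undifferentiated cells (2.91-fold higher), but its other probe sets lay below the filter and the mean over all 3 gave a log2 difference of 0.15. Gusb, beta-glucuronidase, measured 883.1 at day 15 and 517.1 in undifferentiated cells (1.71-fold higher). Sgsh, which acts beside Naglu on heparan sulfate, measured 65.4 at day 15 and 61.5 in undifferentiated cells. Idua, alpha-iduronidase, measured 102.3 at day 15 and 84.3 in undifferentiated cells, and Ids, iduronate sulfatase, 664.3 at day 15 and 691.4 in undifferentiated cells, with probe sets of both directions.

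Glycosidases of glycogen and glycoproteins held 1 gene of 5 (20%) at least 2-fold higher, Neu1, beside 16.5% of all genes. They also held 1 (20%) at least 2-fold lower, Manba, beside 8.41%. Manba, beta-mannosidase, measured 894.7 at day 15 and 2300.7 in undifferentiated cells (2.57-fold lower). The alpha-mannosidase gene Man2b1, which cuts the opposite linkage in the same N-glycans, measured 523.9 at day 15 and 477.4 in undifferentiated cells. Gaa, the glycogen-cutting alpha-glucosidase, measured 554.9 at day 15 and 452.5 in undifferentiated cells, and Fuca1, alpha-fucosidase, 927.7 at day 15 and 672.7 in undifferentiated cells, while its other probe sets above the filter differed by -0.14 and -0.02 on the log2 scale.

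The 3 genes of lipid release all had positive differences. Lipa, acid lipase, which frees cholesterol and fatty acids from esters, measured 377.9 at day 15 and 113.6 in undifferentiated cells (3.33-fold higher), and its other probe sets were 1.53-fold and at least 4.50-fold higher. Ppt1, which strips palmitate from proteins, measured 642.8 at day 15 and 294.2 in undifferentiated cells (2.18-fold higher). Npc2, the soluble carrier that hands cholesterol to Npc1, measured 4914.7 at day 15 and 2483.2 in undifferentiated cells, a 1.98-fold difference that just missed the threshold, while its second bright probe set gave 5327.7 at day 15 and 2230.8 in undifferentiated cells (2.39-fold).

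Tfeb had the most negative log2 difference of the 41 genes. It measured 115.6 at day 15 and 405 in undifferentiated cells (3.50-fold lower), by its only probe set. Its relatives, outside the list, also had lower signals: Tfe3, which is X-linked, measured 816.4 at day 15 and 2379.5 in undifferentiated cells (2.91-fold lower), and Mitf 143.5 at day 15 and 286.3 in undifferentiated cells, short of the 2-fold call. The growth factor precursor gene Grn, progranulin, whose product is also delivered to lysosomes, measured 2046.1 at day 15 and 1225.8 in undifferentiated cells (1.67-fold higher). Transcript levels do not show where TFEB or TFE3 protein was located, which governs their activity.

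Lamp2, Gla and Ids are the X-linked members. Lamp2 alone was at least 2-fold higher at day 15, and the log2 differences of Gla and Ids were -0.52 and -0.06, beside a median of -0.18 over 418 X-linked genes and of 0.91 over the 38 autosomal lysosomal genes above the filter.

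Other genes of the organelle, outside the list, are described by 7 lists with 106 genes above the filter. Of these, 16 (15.1%) passed 2-fold upward at day 15, near the 16.5% of all genes, and 6 passed it downward. Of 19 other lysosomal enzymes 5 (26.3%) passed upward and 0 downward, with a median log2 difference of 0.28 that turned to -0.08 with the control scaling. They included Ctso, another cysteine cathepsin (159.1 at day 15 and 4.4 in undifferentiated cells, at least 4.47-fold), Sumf1, the endoplasmic reticulum enzyme that activates all sulfatases (406.5 at day 15 and 123.5 in undifferentiated cells, 3.29-fold), the aspartylglucosaminidase gene Aga (3.10-fold) and the keratan sulfate sulfatase gene Galns (2.51-fold). Of 21 other membrane proteins 2 (9.52%) were higher, the endolysosomal ion channel gene Tpcn1 (2.81-fold) and Sidt2 (2.34-fold), and 0 lower (median 0.47). Cd68 measured 118.3 at day 15 and 238.6 in undifferentiated cells, and Laptm5 was 1.94-fold lower.

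The 18 subunit genes of the proton pump that acidifies the organelle had a median of 0.26 that turned to -0.10 with the control scaling. Of the 18, 0 were at least 2-fold lower, beside 8.41% of all genes, and 2 (11.1%) at least 2-fold higher, beside 16.5%. These were Atp6v1g1 (3792.6 at day 15 and 1677.1 in undifferentiated cells) and Atp6v0a1 (216.7 at day 15 and 80.7 in undifferentiated cells, with probe sets of both directions), while Tcirg1 (2.07-fold) fell short on the log2 scale and Atp6v0b was at 1.74-fold. In mannose 6-phosphate sorting, the alternative sorting receptor gene Sort1 measured 518.9 at day 15 and 118.7 in undifferentiated cells (4.37-fold higher), and the other 5 genes stayed within 2-fold. The 3 Sort1 probe sets above the filter differed by 0.31 to 1.99 on the log2 scale. The receptor gene Igf2r was 1.68-fold higher, and the genes of the tagging enzymes, Gnptab and Nagpa, were 1.64-fold and 1.60-fold lower. Of the cystatins, which inhibit cysteine cathepsins, 2 lay above the filter: Cstb measured 5302.2 at day 15 and 1554.6 in undifferentiated cells (3.41-fold higher) and Cst3 2468 at day 15 and 1910.6 in undifferentiated cells. MiT factors, folliculin, Ragulator and Rag GTPases tie the lysosome to nutrient sensing. Of 16 genes listed with them 2 (12.5%) were at least 2-fold higher. These were Fnip1 (2.22-fold, with probe sets from 0.26 to 1.12 on the log2 scale) and Zkscan3 (2.56-fold), which is none of the named kinds. At least 2-fold lower were 2 (12.5%, beside 8.41% of all genes), Tfe3 and the Rag GTPase gene Rragd (2.46-fold).

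**Figure D4:**
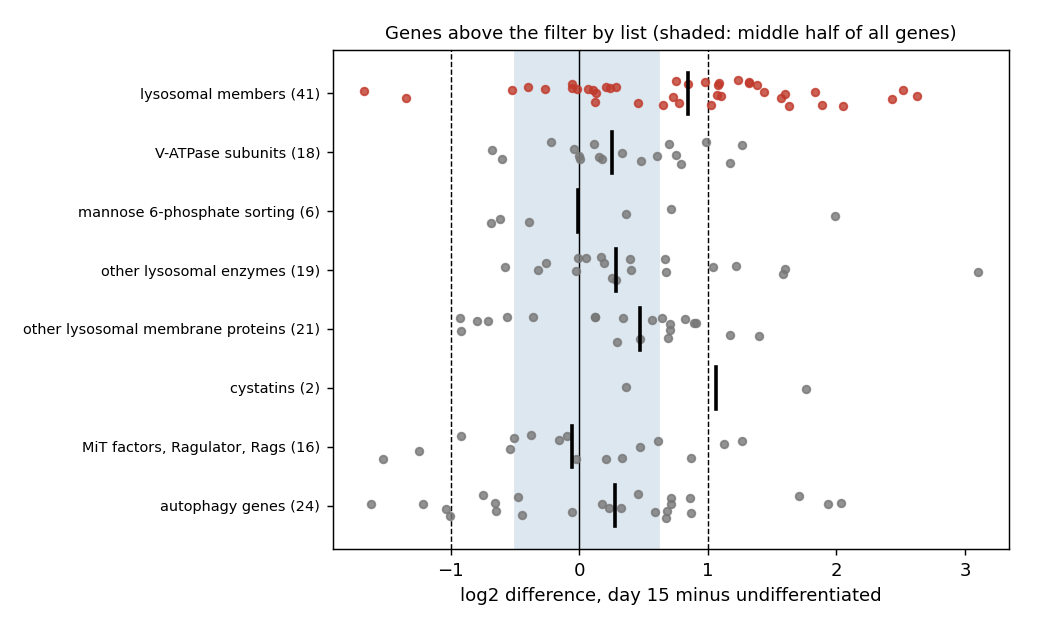
Log2 difference (day 15 minus undifferentiated) of the genes above the filter in the lysosomal list (red) and in 7 lists of related genes (grey), with the number of genes in brackets and the median as a black bar. The shaded band runs from -0.50 to 0.62, the middle of all genes, and 25 of the 41 lysosomal genes lie above it.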

How the data were processed

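Affymetrix expression arrays gave the deposited signal intensity on a linear scale, per the labels and the file's values, with 45101 probe sets on each array. Which software summarised the probes is not stated in the sources used here. The authors had scaled the intensity, since its mean with 2% of probe sets trimmed at both ends equalled 250 for each array. The arrays' number, 1 per condition, limits the precision. After 64 control probe sets were left out, 34945 of 45037 probe sets named 1 gene in the platform annotation, 932 several and 9160 were not listed. Symbols followed RefSeq (GRCm38.p6). A pseudocount of 16, a filter at the median probe set and a 2-fold threshold were used in Python 3.11.15 with pandas 2.3.3 and numpy 2.4.6, tested on simulated data. Where 5157 genes had several probe sets above the filter, these differed with an SD of 0.53 in log2 difference, which includes no variation between cultures. Named genes outside the lysosomal list are up to 4 per list with the largest differences. Added to them are single genes chosen after their values were seen (Mitf, Adgre1, Fcer1g, Cd14 and macrophage markers below the control level). The members and lists were chosen with earlier results of these data known. The settings varied were the pseudocount, filter, choice of probe set and scaling.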

Additional observations from a re-analysis of the deposited data

How the results depend on the processing

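Over the alternatives run, the lysosomal genes at least 2-fold higher at day 15 numbered 13 to 19 of those above the filter, except with scaling on the hybridization controls, which gave 10. The 10 were all among the 19 of the deposited scaling. The genes at least 2-fold lower numbered 2 under every alternative, and the median log2 difference lay between 0.46 and 0.86. Of the 21 genes past 2-fold, 18 had a value under all 8 alternatives, while Ctsd, Hexa and Smpd1 had none with suffixes a, s and x left out. All 21 kept their sign wherever they had a value. Past 2-fold under all 8 were 9 genes, Ctsb, Ctsc, Ctsh, Ctss, Lamp2, Naglu, Tpp1, Tfeb and Manba, of which Ctsh, Ctss and Naglu lay below the filter at the 75th percentile and so left its counts. Hexa and Smpd1 were past 2-fold under the other 7. The filter settings cannot change the value of a gene, only whether it is counted. Ctss, Naglu, Tfeb and Manba have 1 probe set each, so the choice of probe set could not change their values either. With the mean over probe sets, Arsb, Neu1 (0.36), Ppt1 (0.54), Ctsa (0.69) and Ctsl (0.98) lost the 2-fold call, Ctsc was at 1.34, Npc2 passed it and Fuca1 turned to -0.14. That mean takes in probe sets below the filter, which Arsb, Neu1, Ppt1, Ctsl, Ctsc, Npc2 and Fuca1 have. With suffixes a, s and x left out, Ctsl was at 0.57, by a probe set below the filter, and Lipa at 0.49. With the pseudocount of 1, Ctss was at 3.29 and with 64 at 1.43. The medians of the proton pump (-0.10) and of the other lysosomal enzymes (-0.08) turned below 0 with the control scaling. No paired analysis was possible because each condition has 1 array.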

Other observations

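Autophagy genes, which deliver cargo to lysosomes, differed in both directions. Of 24 above the filter, 3 (12.5%) passed 2-fold upward at day 15, beside 16.5% of all genes, and 4 (16.7%) downward, beside 8.41% of all genes, with a median log2 difference of 0.28 that turned to -0.09 with scaling on the hybridization controls. Of the kinase genes that start autophagy, Ulk2 measured 232.1 at day 15 and 49 in undifferentiated cells (4.74-fold higher), whereas Ulk1 measured 431.5 at day 15 and 1356.6 in undifferentiated cells (3.14-fold lower, in both of its probe sets above the filter). Gabarap, a membrane tag of autophagosomes, measured 3769.3 at day 15 and 1142.6 in undifferentiated cells (3.30-fold higher), and Atg10, a conjugating enzyme, was at least 3.71-fold higher. Gabarapl2, chosen after its value was seen, measured 1129.2 at day 15 and 2288.1 in undifferentiated cells. Of the 20 lysosomal genes with several probe sets above the filter, 17 had all of them in 1 direction and 3 had them in both. Among all 5157 genes with several such probe sets, 1552 had them in both directions. Of the 8 such lysosomal genes at least 2-fold higher at day 15, Ctsb, Ctsh, Tpp1 and Lamp2 had all of them past 2-fold.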
